A study of Mus musculus and Acomys cahirinus with 25 samples.

Results

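The genes described here are the Wnt pathway at the cell surface and its core readouts: 19 Wnt ligands, 12 receptors and co-receptors (Fzd1 to Fzd10, Lrp5 and Lrp6), 11 secreted inhibitors (the Sfrp, Dkk, Wif1, Frzb and Notum genes), 5 nuclear proteins (Ctnnb1, Lef1, Tcf7, Tcf7l1 and Tcf7l2) and 3 intracellular feedback genes (Axin2, Nkd1 and Nkd2). The rule takes them by gene symbol and uses no measured value, although the gene family was chosen with earlier results of these data known, and 50 of the 24500 symbols in the count files met the rule. Their levels were read in 25 bulk RNA-seq libraries of epidermis and dermis from skin wounds of laboratory mice and African spiny mice.

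Wnt ligands are lipid-bearing secreted proteins that bind a Frizzled receptor and, in the canonical branch, an Lrp5 or Lrp6 co-receptor. Binding stops the breakdown of β-catenin, the product of Ctnnb1, which enters the nucleus and acts with the Lef1 and Tcf proteins on target genes such as Axin2 and Nkd1, whose products dampen the same signal. Secreted inhibitors act outside the cell: Sfrp and Frzb proteins and Wif1 bind the ligands, Dkk1, Dkk2 and Dkk4 bind the Lrp co-receptors, and Notum removes the ligands' lipid. In skin, canonical signaling is required for hair placodes to form, and Lef1 marks placodes and the dermal condensates beneath them.

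Full-thickness dorsal wounds of laboratory mice were collected on PWD14 (post-wound day 14), and the wound center was punched out and kept apart from the margin before epidermis and dermis were separated by hand. Wild-type wounds gave 2 epidermis libraries of the center, 2 of the margin, 5 dermis libraries of the center and 2 of the margin. A further 2 dermis libraries of the wound center came from mice in which a keratin 14 promoter drives Cre against loxP-flanked Twist1 (K14-Cre-Twist1), so that the deletion is expected in keratinocytes and not in dermal fibroblasts. The 5 wild-type center dermis libraries fell into the 2 that the study drew with the margins (libraries 1 and 2) and the 3 that it drew with K14-Cre-Twist1 (libraries 3, 4 and 5), and that division was kept. C57BL/6J was the main strain of the study, whereas Twist1+/+ wild types were the controls of the transgenic mice, and the strain of these and of K14-Cre-Twist1 is not given in the sources used here. The spiny mouse libraries (Acomys cahirinus, whole skin or whole wounds, separated with trypsin) were epidermis from PWD0 (1 library), PWD14 (2), PWD21 (2) and PWD28 (1), and dermis from PWD0 (2), PWD14 (1), PWD21 (2) and PWD28 (1). PWD0 is unwounded skin. The study describes the laboratory mouse libraries as biologically independent experiments. It also says in general that its bulk RNA-seq used independent duplicates. For the spiny mouse libraries the sources used here do not say whether replicates came from separate animals. The p-values there measure only the spread between these libraries. That spread exceeded counting error in each pair (chi-square per degree of freedom of 28.3 to 102.6) but may still be technical.

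Reads on genes ranged from 19413261 to 86532134 in laboratory mouse libraries and from 5669760 to 34751956 in spiny mouse libraries, and 3 counts, taken as the smallest detectable amount, were worth 0.0470 to 0.526 CPM (read counts scaled to a common library size with edgeR's TMM factors). Spiny mouse reads had been aligned to the laboratory mouse genome and 24.4% to 52.9% of them fell on genes, so levels were not compared between the species. All 14 keratinocyte markers had counts in every epidermis library and all 15 fibroblast markers in every dermis library. Fibroblast markers had median levels of 87.8 and 72.8 CPM in the laboratory mouse epidermis centers and 34.7 and 11.7 CPM in the margins, against 1369 to 2965 CPM in wild-type dermis. Floors cover counting error only, whereas the SE of a log2 fold change also takes in the spread between libraries. In bulk tissue, fewer cells of a type and less RNA per cell cannot be told apart.

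The comparison of epidermis with dermis asked in which of the 2 separated tissues each part of the pathway was read. Spiny mouse dermis libraries also held epithelial transcripts. Hair follicle markers summed to 185 to 27872 CPM in them and to 1149 to 20843 CPM in epidermis. Keratinocyte markers had medians of 26.9 to 378 CPM in dermis and 949 to 1974 CPM in epidermis. A higher level in dermis therefore does not show which cells held the RNA, and the part of these cells was not tested. In both species the ligands were split between the tissues, whereas each secreted inhibitor that passed the test was higher in dermis. In spiny mouse wounds, 34 of the 46 members tested differed between the tissues at an FDR under 0.05 by edgeR's quasi-likelihood test with day as a term (6 against 6 libraries), 9 higher in epidermis and 25 higher in dermis. Of all 15288 genes tested, 54% passed, 26% higher in epidermis and 28% higher in dermis, and the median log2 difference was -1.16 over the members against 0.01 over all genes. In laboratory mouse wounds, 32 of 41 members differed (4 against 4 libraries, with region as a term), 11 higher in epidermis and 21 in dermis, where 60.4% of 14730 genes passed, 29.8% higher in epidermis and 30.6% in dermis, with medians of -1.36 and -0.06. The laboratory mouse dermis was sequenced single-end and the epidermis paired-end, so that tissue and read type cannot be told apart there. With counts scaled by library size alone, an alternative chosen after seeing the data, the laboratory mouse split became 8 members higher in epidermis and 25 higher in dermis, and that of all genes 2277 and 7205, with the median gene at -0.88.

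**Figure D1:**
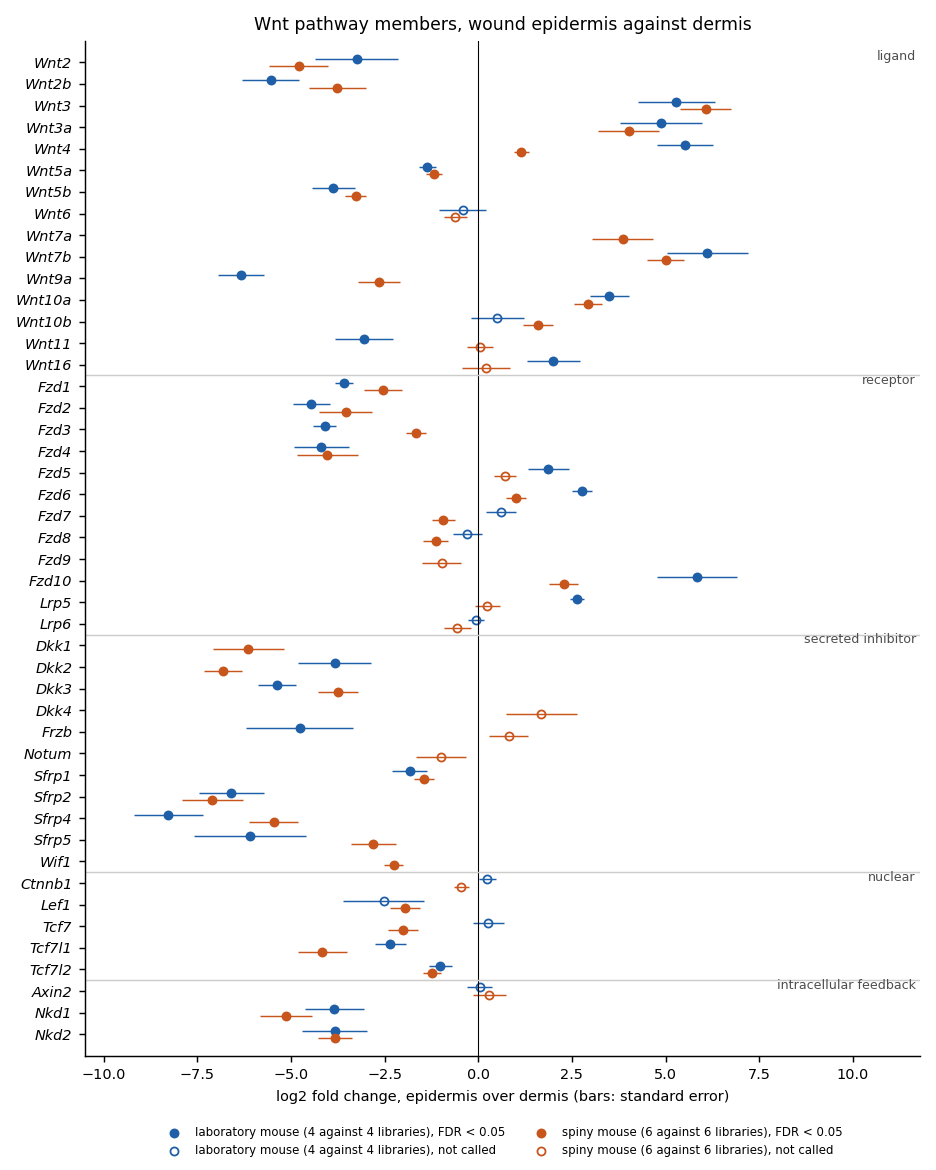
Log2 ratio of epidermis to dermis for each member tested, with positive values higher in epidermis; dots are the fitted ratios in laboratory mouse (blue, 4 against 4 libraries) and spiny mouse (orange, 6 against 6), bars are SE and filled dots have an FDR under 0.05. Members with a group at 0 in every library are left out; the secreted inhibitors that passed lie on the dermis side in both species.

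Among the ligands, 12 of 15 tested passed in the spiny mouse (7 higher in epidermis, 5 in dermis) and 13 of 15 in the laboratory mouse (7 and 6). Wnt3, a ligand of the canonical branch made by epidermal cells, was read at 309 to 527 CPM (median 423) in the 6 spiny mouse epidermis libraries and at 1.29 to 34.9 CPM (median 8.40) in the 6 of dermis. The tissues did not overlap, which held for 23.7% of the 15288 genes tested, and the log2 fold change was 6.08 (SE 0.68, FDR = 2.38e-05). Wnt7b, which also signals from the epidermis, lay at 28.6 to 82.6 CPM (median 42.4) and 0.0403 to 5.09 CPM (median 1.86) (log2 fold change 5.0, SE 0.49, FDR = 9.89e-06). Wnt10a, an ectodermal ligand with roles in hair and teeth, lay at 26.6 to 43.3 CPM (median 33.7) and 1.61 to 13.4 CPM (median 4.64) (log2 fold change 2.93, SE 0.36, FDR = 5e-05). Wnt5b, usually placed in the non-canonical branch, went the other way, from 1.43 to 3.33 CPM (median 1.84) in epidermis to 9.03 to 29.1 CPM (median 21.3) in dermis (log2 fold change -3.28, SE 0.28, FDR = 3.08e-06). Wnt2, expressed in mesenchyme, lay at 0 to 1.91 CPM (median 0.136) and 4.04 to 17 CPM (median 7.95) (log2 fold change -4.80, FDR = 0.000284).

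The laboratory mouse gave the same sides for these ligands. Wnt4, which acts in epithelia and mesenchyme of many organs, stood at 326, 274, 155 and 284 CPM in the 4 epidermis libraries and at 7.02, 0.380, 6.97 and 10.4 CPM in the 4 dermis libraries, with no overlap (log2 fold change 5.51, SE 0.74, FDR = 0.000240). Laboratory mouse libraries of the 2 tissues were apart in this way for 53.5% of the 14730 genes tested. The difference of Wnt4 in the spiny mouse was 1.14 (SE 0.20), with the dermis reaching 114 CPM. Wnt9a, a ligand of mesenchyme and joints, was read at 0.528, 0.620, 0 and 0.219 CPM in epidermis and at 36.6, 20.5, 31.2 and 23.2 CPM in dermis (log2 fold change -6.33, SE 0.63, FDR = 2.95e-05). Wnt7a had no count in the 4 dermis libraries and 0.612, 0.982, 1.73 and 0.313 CPM in epidermis, which is at least 7.18-fold higher. Wnt2b, close kin of Wnt2, had a log2 fold change of -5.54 (SE 0.76, FDR = 0.000100).

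Levels were compared between genes only per length, as mean CPM per kilobase of exon. On that scale Wnt4 led the ligands of laboratory mouse epidermis with 61.9, followed by Wnt3 with 16.2, Wnt7b with 14.6 and Wnt10a with 13.4. In wild-type dermis (the 2 centers and 2 margins above) the leading ligands were Wnt5a with 15.2, the classic non-canonical ligand, and Wnt9a with 8.37, followed by Wnt5b with 2.55. The most abundant inhibitors of dermis, Sfrp2 with 86.6 and Dkk3 with 59.9 CPM per kilobase, stood far above every dermal ligand on the same scale, while the leading inhibitors of epidermis were Sfrp1 with 4.26 and Dkk3 with 1.91. Dkk3 is a divergent Dkk protein that does not bind the Lrp co-receptors as Dkk1 does.

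Receptors divided by gene. In the laboratory mouse 8 of 11 passed, 4 on each side, and in the spiny mouse 8 of 12, 2 higher in epidermis and 6 in dermis. Lrp5, a canonical co-receptor, was read at 187, 182, 226 and 190.2 CPM in laboratory mouse epidermis and at 30, 38.9, 28.8 and 32.8 CPM in dermis (log2 fold change 2.63, SE 0.18, FDR = 1.13e-05). Fzd6, a Frizzled with a role in the orientation of hairs, was read at 130.4, 112, 199.5 and 129.7 and 10.9, 17.3, 30.1 and 34.7 CPM (log2 fold change 2.76, SE 0.26, FDR = 3.77e-05). These led the epidermal receptors per length, with 32.7 and 32.6 CPM per kilobase. Fzd1 had the lowest p-value of all members in this species and lay on the dermis side, with 21.7, 16.3, 8.92 and 13.2 CPM in epidermis and 174, 190.1, 168 and 183 CPM in dermis (log2 fold change -3.58, SE 0.24, FDR = 1.01e-05). Fzd2, Fzd3 and Fzd4 lay on the same side, with log2 fold changes of -4.46, -4.10 and -4.19. Of the spiny mouse receptors, Fzd10 had a log2 fold change of 2.28 (FDR = 0.000503) and Fzd3 one of -1.67 (FDR = 0.000255).

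Of the secreted inhibitors, 8 of 11 passed in the spiny mouse and 7 of 7 in the laboratory mouse, and each of these was higher in dermis. Dkk2, a Dkk that binds Lrp6, gave the lowest p-value of all members in the spiny mouse: it was read at 0 to 0.395 CPM (median 0.0866) in epidermis and at 9.84 to 56.1 CPM (median 19.6) in dermis (log2 fold change -6.82, SE 0.51, FDR = 1.15e-07). Sfrp2, a ligand-binding protein of fibroblasts, lay at 0.114 to 2.30 CPM (median 0.377) and 1.93 to 158 CPM (median 51.6) (log2 fold change -7.10, SE 0.81). In the laboratory mouse it lay at 3.29, 3.02, 0 and 1.25 CPM in epidermis and at 122, 109.6, 310.1 and 152 CPM in dermis (log2 fold change -6.59, SE 0.87). Every dermis library exceeded every epidermis library there, whereas in the spiny mouse the lowest dermis library, an unwounded one, lay below the highest of epidermis. Sfrp4 had log2 fold changes of -5.47 in the spiny mouse and -8.28 in the laboratory mouse, and Dkk3 of -3.75 and -5.38. Wif1 had no count in any laboratory mouse epidermis library and was at least 11-fold higher in dermis, where of the 4 libraries compared the margins alone held it (too few counts for the test), while in the spiny mouse its log2 fold change was -2.26 (SE 0.26, FDR = 3.13e-05).

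Of the nuclear genes, Tcf7l1, a Tcf that mostly represses, had log2 fold changes of -4.16 in the spiny mouse and -2.35 in the laboratory mouse, both past the threshold, and Ctnnb1 had -0.45 (FDR = 0.0818) and 0.24 (FDR = 0.377), neither past it. The feedback genes Nkd1 and Nkd2, which bind Dishevelled, were higher in dermis in both species, with log2 fold changes of -5.14 and -3.83 in the spiny mouse and -3.84 and -3.83 in the laboratory mouse. Axin2, the most widely used readout of canonical signaling, had differences of 0.29 (SE 0.43, FDR = 0.588) and 0.03 (SE 0.34, FDR = 0.936). Of the 27 members that passed in both species, 27 had the same direction, 19 higher in dermis and 8 in epidermis, and among all genes 93.2% of the 5460 that passed in both did.

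A mean of at least 1 CPM was reached by 45 of the 50 members in spiny mouse dermis, 39 in spiny mouse epidermis, 40 in laboratory mouse dermis and 29 in laboratory mouse epidermis. The inhibitors gave the widest gap, with 11 of 11 in spiny mouse dermis, 7 in spiny mouse epidermis, 8 in laboratory mouse dermis and 3 in laboratory mouse epidermis (Sfrp1, Sfrp2 and Dkk3). Wnt1, Wnt8a, Wnt8b and Wnt9b were too low to be tested between the tissues in either species. Dkk4 and Wnt8b had no count in any laboratory mouse library, which at these depths allows at most 0.0470 to 0.134 CPM.

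Spiny mouse dermis on PWD21 was compared with unwounded dermis, 2 against 2 libraries. Of the 44 members tested, 22 passed an FDR of 0.05, 14 higher and 8 lower on PWD21, where 26.2% of the 14481 genes passed, 12% higher and 14.2% lower. The median log2 fold change was 0.46 over the members and 0.03 over all genes. Ligands gave 5 higher and 2 lower of 13, receptors 3 and 2 of 12, inhibitors 3 and 4 of 11, feedback genes 2 higher of 3, and among nuclear genes Tcf7 alone passed of 5, higher.

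Among the genes that rose from a level above 0, Sfrp2 moved most. It stood at 1.93 and 3.20 CPM in unwounded dermis and at 79.1 and 158 CPM on PWD21 (log2 fold change 5.44, SE 0.46, FDR = 0.000331), and the single libraries of PWD14 and PWD28 held 156 and 24 CPM. Wnt2b rose from 0.351 and 0.383 to 7.66 and 8.82 CPM (log2 fold change 4.39, SE 0.57, FDR = 0.00134) and held 24 CPM on PWD14 and 0.966 CPM on PWD28. Both thus had their highest or near-highest level at PWD14 or PWD21 and were lower again in the PWD28 library. Fzd2, a Frizzled that receives Wnt5a among other ligands, rose from 45.1 and 42.9 to 179.6 and 260.3 CPM (log2 fold change 2.24, SE 0.30, FDR = 0.00168). Wnt5a rose from 33 and 38.9 to 76.2 and 97.8 CPM (log2 fold change 1.20, SE 0.28, FDR = 0.0162). No PWD21 library of these 4 genes overlapped the unwounded ones, but the same held for 68.6% of the 14481 genes tested.

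Of the other ligands, Wnt4 rose from 26.3 and 21.2 to 69.5 and 79.6 CPM (log2 fold change 1.57, SE 0.29), Wnt16 from 2.46 and 7.16 to 23.5 and 27.2 CPM (2.32, SE 0.48) and Wnt9a from 1.93 and 2.30 to 8.51 and 8.87 CPM (1.96, SE 0.44). The feedback genes rose with them. Nkd1 went from 17.9 and 36.2 to 72.2 and 150.2 CPM (log2 fold change 1.97, SE 0.44, FDR = 0.0135) and Nkd2 from 10.5 and 34.9 to 90.6 and 118 CPM (2.14, SE 0.49, FDR = 0.0153), whereas Axin2 was read at 18.1 and 34.1 and 29.3 and 70.6 CPM, overlapping, and did not pass (0.86, SE 0.45, FDR = 0.186). Tcf7, which encodes TCF1, rose from 6.32 and 13.9 to 28.6 and 44.2 CPM (log2 fold change 1.77, SE 0.42, FDR = 0.0181). Dkk1 had no count in unwounded dermis and 1.45 and 2.13 CPM on PWD21, at least 3.40-fold higher (FDR = 0.0154).

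Of the 8 genes that fell, the receptor Fzd8 had the lowest p-value. Fzd8 went from 78.1 and 46.7 CPM in unwounded dermis to 3.02 and 6.04 CPM on PWD21 (log2 fold change -3.86, SE 0.45, FDR = 0.000957) and stayed at 4.89 CPM in the PWD14 and 6.12 CPM in the PWD28 library. Dkk4, an inhibitor that hair placodes secrete, fell from 10.2 and 3.96 to 0.0403 and 0.270 CPM (log2 fold change -5.43, SE 0.85, FDR = 0.00339). Dkk2 fell from 39.5 and 56.1 to 11.3 and 19.3 CPM (-1.71, SE 0.36, FDR = 0.0106) and Sfrp5 from 5.79 and 5.75 to 1.05 and 1.13 CPM (-2.47, SE 0.50, FDR = 0.00937). Wnt3 and Wnt7b, the epidermal ligands above, also fell, with log2 fold changes of -2.43 and -3.31. Keratinocyte markers moved with the dermis samples: their median was 351 and 378 CPM in the unwounded libraries, 26.9 CPM on PWD14, 28.6 and 57.9 CPM on PWD21 and 78 CPM on PWD28, with a summed level of 7922 to 12868 CPM in unwounded dermis against 717 to 1387 CPM on PWD21 and none of the 14 at 0. Fibroblast markers went from 353 and 339 to 2226 and 2027 CPM and adipocyte markers from 45.9 and 47.2 to 0.988 and 1.63 CPM. Their part in these changes was not tested.

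**Figure D2:**
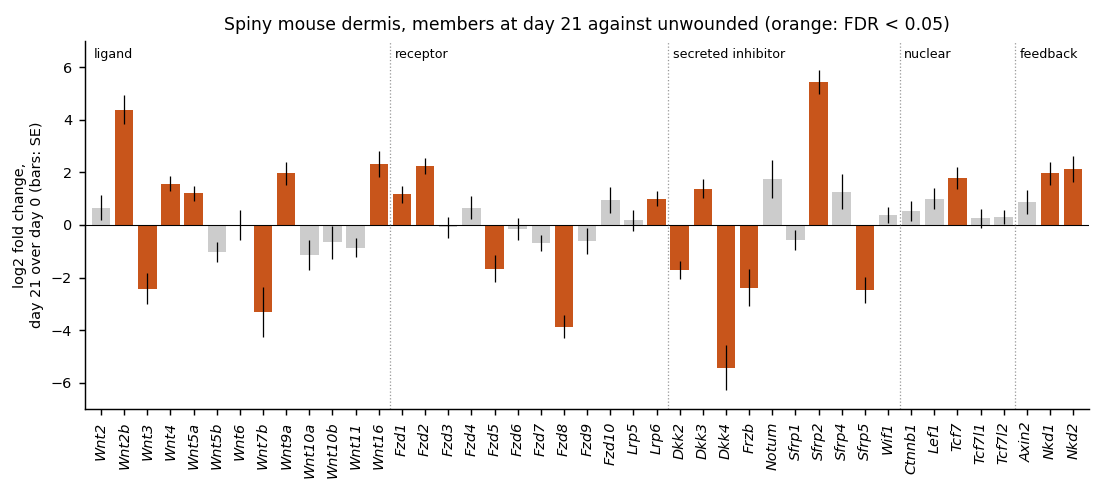
Log2 fold change of each member in spiny mouse dermis, PWD21 against PWD0 (2 against 2 libraries), by role; columns are the fitted values, thin lines are SE, and orange columns have an FDR under 0.05 while gray ones do not. Dkk1, with no count on PWD0, is left out; Sfrp2 has the highest column and Dkk4 the lowest.

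Leaving out either PWD21 library lowered the count of members that passed from 22 to 11 (without library 1) or 10 (without library 2), with 1360 and 1311 of all genes passing. The PWD21 group then holds 1 library, which is assumed to vary like the unwounded ones. Of the 15 members of lowest p-value, Wnt5a, Wnt9a, Sfrp5 and Dkk1 lost their call on leaving out either library, with an FDR of 0.0549 and 0.131 for Wnt5a and 0.149 and 0.269 for Dkk1. Dkk2 lost it without library 1 (FDR = 0.0901), and Wnt16, Nkd1, Nkd2 and Tcf7 lost it without library 2 (FDR = 0.0627, 0.110, 0.0824 and 0.133). Sfrp2, Fzd8, Wnt2b, Fzd2, Dkk4 and Wnt4 passed in both cases.

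In spiny mouse epidermis, the days with 2 libraries each were PWD14 and PWD21. Of 38 members tested, 13 passed an FDR of 0.05, 4 higher and 9 lower on PWD14, against 46.6% of the 12889 genes tested, 23.4% higher and 23.2% lower, so the members' share was below that of all genes. With counts scaled by library size alone, all 16 members that passed were lower on PWD14, and of all genes 1335 were higher and 5721 lower, with the median gene at -0.59 on the log2 scale. The directions of the 4 members higher on PWD14 held under both scalings, but none of them passed under library size alone.

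Wif1 and Wnt16 had the lowest p-values. Wif1 was read at 0.575 and 1.98 CPM on PWD14 and 13.4 and 11.6 CPM on PWD21 (log2 fold change -3.17, SE 0.44, FDR = 0.000281), and Wnt16, a ligand of interfollicular and follicular keratinocytes, at 0.805 and 4.42 and 20.9 and 28.6 CPM (-3.10, SE 0.44, FDR = 0.000314). Lef1 was read at 1.26 and 2.16 CPM on PWD14 and at 6.17 and 5.25 CPM on PWD21 (log2 fold change -1.67, SE 0.43, FDR = 0.00886). All 3 genes were lower on PWD14 in both libraries, and libraries of the 2 days were apart for 76.8% of the 12889 genes tested. Nkd2 (-1.83), Wnt7a (-1.57), Wnt10b (-1.50), Frzb (-1.39), Wnt11 (-0.93) and Fzd10 (-0.82) had negative log2 fold changes that passed as well. The Wnt7a call ended on leaving out any of the 4 libraries (FDR = 0.0741 to 0.205), without the low-count filter (FDR = 0.0580), with DESeq2 (FDR = 0.139) and with edgeR's older quasi-likelihood estimate (FDR = 0.0525). Frzb lost its call with DESeq2 (FDR = 0.0569) and without PWD14 library 1 or PWD21 library 2, and Nkd2 without PWD14 library 2 or either PWD21 library. Wnt11 lost it without PWD14 library 1 or PWD21 library 1, and Lef1 and Fzd10 without PWD21 library 1 (FDR = 0.0618 and 0.0666). Wif1, Wnt16 and Wnt10b passed in each of these cases.

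On the other side, Wnt4 stood at 276 and 253 CPM on PWD14 and 156 and 128 CPM on PWD21 (log2 fold change 0.94, SE 0.17, FDR = 0.00106), or 0.39 (FDR = 0.0651) with library size alone. Tcf7l2, the TCF4 gene, stood at 37.1 and 32 and 18 and 15.2 CPM (1.08, SE 0.22, FDR = 0.00209). Wnt7b and Wnt5a had log2 fold changes of 0.83 and 0.67, and Wnt7b lost its call without PWD14 library 1 or PWD21 library 2 and Wnt5a without either PWD21 library. Hair follicle markers, mainly keratins of the hair shaft and root sheath, had medians of 5.0 and 6.26 CPM on PWD14 and 39.7 and 31.3 CPM on PWD21, but their summed level was 3075 and 3121 CPM on PWD14 and 3713 and 2646 CPM on PWD21, overlapping. Most of that sum was Krt75, a keratin of the follicle's companion layer, at 2908 and 2919 CPM on PWD14 and 2399 and 1980 CPM on PWD21.

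Across the 4 days, an F test over all 6 epidermis libraries called 31 of the 43 members tested, where 59.5% of 14336 genes passed, and the same test in dermis called 24 of 45, where 24.7% of 15344 passed. Days with 1 library were assumed to vary like the pairs. The lowest p-values in epidermis belonged to Nkd2 (FDR = 2.62e-06), Lef1 (FDR = 1.09e-05), Axin2 (FDR = 2.09e-05), Lrp5 (FDR = 2.47e-05) and Fzd1 (FDR = 4.25e-05), and those in dermis to Wnt2b (FDR = 0.000731), Sfrp2 (FDR = 0.000734), Wif1 (FDR = 0.00181), Fzd8 (FDR = 0.00182) and Fzd2 (FDR = 0.00331). These tests share libraries with the pairwise comparisons of days above.

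In epidermis the feedback and nuclear genes had their highest mean on PWD28, except Axin2 (PWD0) and Tcf7l2 (PWD14). Nkd2 was read at 2.74 CPM in unwounded epidermis, 1.38 and 0.721 on PWD14, 3.86 and 3.54 on PWD21 and 64.5 on PWD28. Lef1 followed with 3.33 CPM, then 1.26 and 2.16, 6.17 and 5.25 and 49.5. The PWD28 library thus exceeded every earlier epidermis library for both genes. Axin2 was high in unwounded epidermis, at 107 CPM, lay at 23.5 and 21.6 on PWD14 and 28.8 and 25.2 on PWD21, and stood at 100.2 on PWD28. The co-receptor Lrp5 had the same U shape, with 229 CPM, 47.3 and 37, 60.1 and 50.8 and 155. Lrp6, the other co-receptor, went from 70.3 to 18 and 20.7, 17.9 and 22.6 and 43.4 CPM. For these 3 genes every healing library on PWD14 and PWD21 lay below both the unwounded and the PWD28 library.

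Most receptors had this U shape as well, and 10 of 12 passed in epidermis. Both PWD14 and both PWD21 libraries lay below the unwounded and the PWD28 library for Fzd1, Fzd2, Fzd5, Fzd6, Fzd7, Fzd8, Fzd9 and Fzd10. The same held with counts scaled by library size alone. How many of all genes had this U shape was not counted. Whether the shape is particular to these genes therefore cannot be told. Fzd10, the receptor most restricted to epidermis, was read at 66.7 CPM on PWD0, 21.3 and 22.3 on PWD14, 40.9 and 37.8 on PWD21 and 102 on PWD28. Wnt4 had the mirror image, with 85.9 CPM on PWD0, 276 and 253 on PWD14, 156 and 128 on PWD21 and 72.2 on PWD28. Wnt3 stayed between 309 and 527 CPM over all 6 libraries (FDR = 0.0718).

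In dermis, Nkd2 was read at 10.5 and 34.9 CPM on PWD0 and, between these, at 21.6 on PWD14. It was higher on PWD21, at 90.6 and 118, and on PWD28, at 283 (FDR = 0.00838). Wif1 lay at 47.2 and 37.3 CPM on PWD0, 4.18 on PWD14, 67.3 and 49.3 on PWD21 and 144 on PWD28, and Sfrp4 at 15.4 and 4.73, 142, 39 and 12.2 and 0.161. The inhibitors therefore did not move together, since the PWD14 library held the lowest Wif1 and the highest Sfrp4. Notum rose to 11.2 CPM on PWD28 from 0.351 and 1.02 on PWD0 (FDR = 0.00897), and Fzd10 stood at 69.1 CPM on PWD28 against at most 14.4 earlier (FDR = 0.00401). Wnt3a had no count on PWD0 or PWD14, 0.322 and 0.297 CPM on PWD21 and 7.65 CPM on PWD28 (FDR = 0.00630). Each of these PWD28 levels is 1 library, and without it the day test no longer called Fzd10 (FDR = 0.1251) and gave no value for Wnt3a, while Nkd2 and Notum passed (FDR = 0.0135 and 0.0435). Lef1 went from 6.67 and 14.6 CPM on PWD0 to 53.9 on PWD28 and passed in dermis (FDR = 0.0360).

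**Figure D3:**
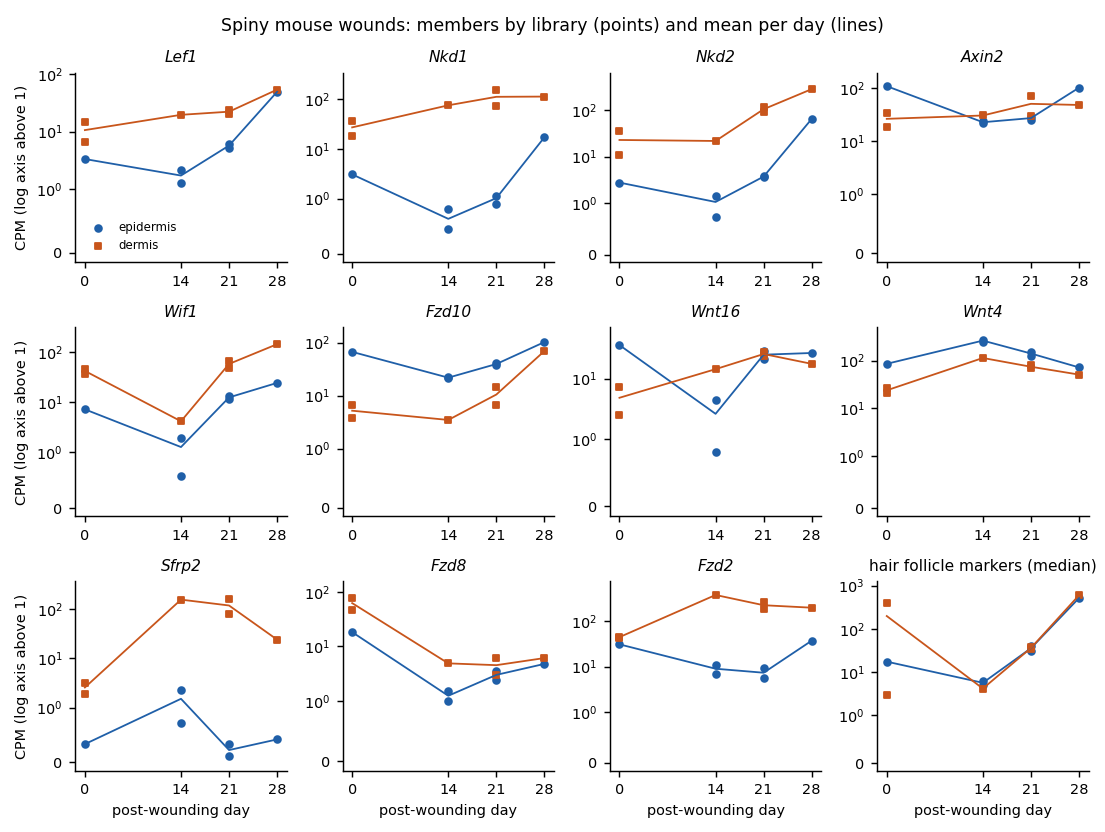
CPM of 11 members and the median of the 14 hair follicle markers in each spiny mouse library by post-wound day (a linear scale near 0 and logarithmic above); blue circles are epidermis and orange squares dermis, 1 point per library. Lef1, Nkd2 and the hair follicle markers are highest in the PWD28 libraries of both tissues, while Sfrp2 is high in dermis on PWD14 and PWD21.

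Of the 42 members that reached a mean of 1 CPM on some day in epidermis, 21 (50.0%) had their highest mean on PWD28, against 18.4% of 13531 genes, and 4 (9.52%) on PWD14, against 32.3%. In dermis 20 of 45 (44.4%) were highest on PWD28, against 19.5% of 14547 genes. A further 11 (24.4%) were highest on PWD14, against 29.4% of genes, 9 (20%) on PWD0, against 25.6%, and 5 (11.1%) on PWD21, against 25.6%. With library size alone the PWD28 shares were 59.5% of members against 33.1% of genes in epidermis and 55.6% against 29.9% in dermis. PWD28 is 1 library in each tissue. Highest there in both tissues were Fzd10, Lef1, Nkd1, Nkd2, Notum, Tcf7l1, Wif1, Wnt10b, Wnt3a, Wnt5a and Wnt6. The hair follicle markers had a median of 513 CPM in the PWD28 epidermis library and 5.0 to 39.7 CPM in the other 5, with a summed level of 20843 against 1149 to 3713 CPM. In dermis the median was 595 CPM on PWD28, 2.98 and 391 CPM in the unwounded libraries and 4.15 to 38.2 CPM in the other 3. None of the 14 markers was at 0 in either PWD28 library, and the part of hair follicle cells in the PWD28 levels was not tested.

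**Figure D4:**
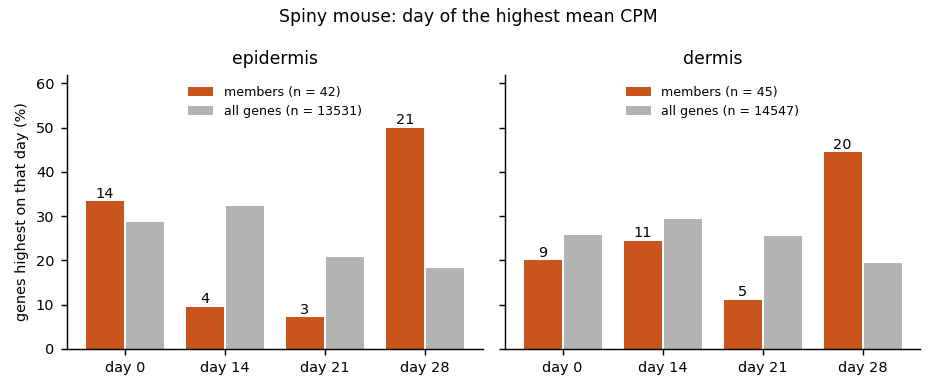
Percent of members (42 in epidermis, 45 in dermis) and of all genes reaching 1 CPM whose highest mean fell on each post-wound day in the spiny mouse. PWD28 holds 50.0% of members in epidermis and 44.4% in dermis, against 18.4% and 19.5% of all genes.

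Since the genes that stood highest on PWD28 included known β-catenin targets, the promoters of the members were searched for the core sequence that Lef1 and Tcf proteins bind, the letters CTTTG followed by 2 letters that are each A or T, on either strand, in the 250 bases before each RefSeq start on GRCm38.p6. Windows were found for 35 of the 50 members, and 6 of these (17.1%) held a match: Dkk1, Fzd7, Lef1, Tcf7l2, Wnt5b and Wnt11. Among all 27025 genes with windows, 16.8% did, so the members' share lay near that of all promoters. The windows of 3 genes are shown, with matches in capitals: that of Lef1 on the plus strand (chr3:131156044-131156293), which belongs to 1 of 4 listed starts and lies inside the gene, that of Dkk1 on the minus strand (chr19:30549497-30549746), with 2 matches at 117 and 98 bases before the start, and that of Axin2 on the plus strand (chr11:108920099-108920348), which has none. They are shown because Lef1 and Axin2 carried the day pattern in epidermis and Dkk1 appeared in dermis after wounding.
Lef1: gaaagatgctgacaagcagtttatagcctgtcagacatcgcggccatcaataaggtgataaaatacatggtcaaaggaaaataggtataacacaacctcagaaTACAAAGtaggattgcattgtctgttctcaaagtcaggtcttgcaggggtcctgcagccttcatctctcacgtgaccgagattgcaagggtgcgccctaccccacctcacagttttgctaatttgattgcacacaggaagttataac
Dkk1: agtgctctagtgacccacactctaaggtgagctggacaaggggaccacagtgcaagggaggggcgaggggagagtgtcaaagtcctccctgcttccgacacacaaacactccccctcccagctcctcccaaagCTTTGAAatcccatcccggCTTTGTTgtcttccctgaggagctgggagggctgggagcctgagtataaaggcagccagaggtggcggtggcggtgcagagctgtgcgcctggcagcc
Axin2: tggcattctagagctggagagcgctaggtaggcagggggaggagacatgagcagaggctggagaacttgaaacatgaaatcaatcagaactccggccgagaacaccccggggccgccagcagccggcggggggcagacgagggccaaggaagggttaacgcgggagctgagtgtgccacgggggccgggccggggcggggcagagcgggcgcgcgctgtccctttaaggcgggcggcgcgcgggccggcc

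A match says only that the letters are present, and the lack of one in the Axin2 window says only that they are not in these 250 bases. In the laboratory mouse annotation, 11 members have an exon over an exon of another gene, mostly on the opposite strand (among them Axin2, Ctnnb1, Lef1, Sfrp2, Wnt5a and Wnt7b). The spiny mouse libraries did not keep strand, and there the reads of both partners cannot be told apart.

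In the laboratory mouse, the wound center, where new hair follicles form, was compared with the margin in each tissue. No member passed an FDR of 0.05 in epidermis (0 of 36 tested by edgeR's quasi-likelihood test, 2 against 2 libraries), where 1.24% of 14165 genes passed. At an unadjusted p under 0.05 there were 9 members, 6 higher and 3 lower in the center, against 23.5% of all genes, 13.1% higher and 10.4% lower. DESeq2 called 4 members (Dkk3, Wnt5a, Sfrp1 and Wnt16) and 1511 of all genes, and the likelihood ratio test of edgeR 4 members and 1533 genes. The median log2 fold change was 0.31 over the members and -0.02 over all genes.

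Dkk3 had the lowest p-value of the members. It was read at 12.7 and 9.28 CPM in the centers and 1.93 and 1.75 CPM in the margins (log2 fold change 2.46, SE 0.44, FDR = 0.0701), and in dermis at 188 and 237 CPM in centers and 193 and 186 CPM in margins (0.17, SE 0.19, FDR = 0.761). Wnt5a was read at 62.5 and 63.8 CPM in epidermis centers and 23.9 and 27 CPM in margins. Nkd1 was read at 6.33 and 4.14 CPM in the centers and 0 and 0.736 CPM in the margins (log2 fold change 3.22, SE 0.79, FDR = 0.109). Centers were above margins in every library for these 3 genes, and so were Fzd2 (1.73, SE 0.61, FDR = 0.178) and Nkd2 (3.51, SE 1.0, FDR = 0.128). Libraries of center and margin were apart, in either direction, for 59.1% of the 14165 genes tested. Of the 36 members tested, 16 were higher in both centers and 5 lower in both. Wnt16, at 10.3 and 6.85 CPM in centers and 37 and 13.1 CPM in margins (log2 fold change -1.66, SE 0.58, FDR = 0.173), Sfrp1 (-1.98, FDR = 0.172) and Tcf7l2 (-0.99, FDR = 0.166) had lower values in both centers. Dkk3, Wnt5a, Nkd1, Fzd2 and Nkd2 were each higher in dermis than in epidermis in these mice, and fibroblast markers summed to 8485 and 6991 CPM in the epidermis centers against 3001 and 1005 CPM in the margins, with none of 15 at 0 in the centers and at most 1 in a margin; their part in the differences was not tested. The margin libraries differed from each other, and without margin library 1 the test called 13 members and 5508 genes, and without margin library 2 it called 23 members and 7405 genes.

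In dermis, again none of the 41 members tested passed (0 at an FDR under 0.05, where 0.85% of 14698 genes passed), and 11 had an unadjusted p under 0.05, 1 higher and 10 lower in the center, against 15.8% of all genes, 5.11% higher and 10.7% lower. DESeq2 and edgeR's likelihood ratio test called 6 members each, and 738 and 886 of all genes. The median log2 fold change was -0.41 over the members and -0.03 over all genes. Sfrp4 was read at 2.17 and 11.3 CPM in centers and 34.3 and 33.4 CPM in margins (log2 fold change -2.35, SE 0.53, FDR = 0.0793). With all 5 wild-type centers in the test it passed (-2.99, FDR = 0.00826), and the 3 further centers held 2.84, 2.64 and 2.37 CPM, all below the margins. These 3 are Twist1+/+ controls, whose strain is not given. Sfrp2 was read at 122 and 109.6 CPM in centers and 310.1 and 152 CPM in margins (-0.99, SE 0.29, FDR = 0.175), but 1 of the further centers held 333 CPM, above both margins.

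Several members had counts in dermis margins and none in the 2 dermis centers tested with them. Among them were Wnt3, Wnt7b and Fzd10, which were higher in epidermis, and the inhibitors Wif1 and Notum. Wif1 had no count in any epidermis library of these mice, and Notum had at most 0.360 CPM there. Wnt3 stood at 2.30 and 7.02 CPM in the margins, at least 36.8-fold higher than the centers, and Wnt7b at 1.98 and 3.68 CPM, at least 22.4-fold higher. Fzd10 was at least 20.7-fold, Wif1 at least 20.9-fold and Notum at least 8.13-fold higher in the margins. Fzd6 had a log2 fold change of -1.21 (SE 0.37, FDR = 0.191) and Fzd5 one of -2.29 (SE 0.78, FDR = 0.220). The 3 further wild-type centers had no Wnt3 either, but Wnt7b was read there at 0.937, 0.939 and 0 CPM, Wif1 at 0.281, 1.03 and 0 CPM, Fzd10 at 0, 0.358 and 0 CPM and Notum at 0, 0.268 and 0 CPM, all below the margins. Fzd5 stood at 13.7, 13 and 11.9 CPM in them, above both margins at 8.98 and 9.31 CPM. Keratinocyte markers had medians of 14.5 and 13.6 CPM in these centers and 45 and 122 CPM in the margins (sums of 590.1 and 379.9 CPM against 1976 and 3771 CPM), and hair follicle markers medians of 0 and 0 against 18 and 18.6 CPM, with 10 and 13 of the 14 at 0 in the centers and none in the margins. Their part in the margin values was not tested. Fzd2 was the member higher in the centers, at 78.1 and 96.1 against 52.4 and 63.9 CPM (0.58, SE 0.23, FDR = 0.255).

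Whether the center-margin contrast differed between the tissues was tested as an interaction over the 8 libraries. It called 3 of 43 members, all with a greater center-to-margin ratio in epidermis, where 3.48% of 15531 genes passed and 3.34% did so in that direction. Dkk3 differed by 2.43 on the log2 scale (SE 0.40, FDR = 0.00840). Fzd10 and Wnt3 passed too (FDR = 0.0198 and 0.0305), and since both had no count in the dermis centers the size of their fitted differences depends on the prior count. The call of Dkk3 was lost on leaving out epidermis center library 1, dermis center library 1 or either dermis margin library (FDR = 0.0526 to 0.0745). That of Fzd10 was lost on leaving out any center library of either tissue or dermis margin library 2 (FDR = 0.0647 to 0.122), and that of Wnt3 on leaving out any of the same 5 libraries or epidermis margin library 1 (FDR = 0.0555 to 0.150). Fzd10 was read at 79.8 and 67 CPM in epidermis centers and 27.8 and 51 CPM in margins, and Wnt3 at 51.4 and 43.9 and 42.4 and 62.1 CPM.

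The dermis of K14-Cre-Twist1 wound centers was compared with the 3 wild-type centers of its own set. Twist1 itself was read at 66.8 and 38 CPM in the K14-Cre-Twist1 libraries and at 51.6, 32.3 and 94.5 CPM in the wild-type libraries, overlapping; since the Cre is driven in keratinocytes, dermis does not check the deletion. No member passed an FDR of 0.05 (0 of 37 by edgeR's quasi-likelihood test), where 0.0565% of 14163 genes passed, and 14 had an unadjusted p under 0.05, 8 higher and 6 lower, against 11.5% of all genes, 6.98% higher and 4.54% lower. DESeq2 called 4 members (Sfrp4, Lrp6, Wnt4 and Fzd1) and 787 of all genes, and edgeR's likelihood ratio test 3 members and 214 genes. The median log2 fold change was -0.17 over the members and -0.07 over all genes.

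Sfrp4 was read at 59.7 and 11.6 CPM in K14-Cre-Twist1 and at 2.84, 2.64 and 2.37 CPM in the wild type (log2 fold change 3.76, SE 0.78, FDR = 0.217). Lrp6 was read at 60.1 and 49.2 CPM against 127, 117 and 122 CPM (-1.15, SE 0.24, FDR = 0.219), and Wnt4 at 16.9 and 52.1 CPM against 10.4, 1.83 and 3.67 CPM (2.64, SE 0.73, FDR = 0.273). Groups did not overlap for these 3 genes, which held for 29.5% of the 14163 genes tested. Of the 37 members tested, 7 lay higher and 11 lower in K14-Cre-Twist1 in this way. The K14-Cre-Twist1 libraries themselves differed: Wnt10a was read at 2.61 and 26.6 CPM, Sfrp1 at 34.1 and 3.27 CPM and Wnt5a at 74.2 and 15 CPM in the 2 libraries, against 2.03, 1.43 and 3.91, 100, 196 and 73 and 99.1, 93.2 and 77.8 CPM in the wild type. The log2 fold changes were -2.71 for Sfrp1 (FDR = 0.277), -0.95 for Fzd1 (FDR = 0.318), -2.56 for Wnt2b (FDR = 0.368) and 1.29 for Nkd1 (FDR = 0.389). Keratinocyte markers had medians of 24.7 and 731 CPM in the K14-Cre-Twist1 libraries (sums of 969 and 31807 CPM) and 0, 0.626 and 0.531 CPM in the wild type (sums of 35.9, 43.4 and 83.6 CPM, with 8, 4 and 6 of the 14 at 0), and their part in the values of the epidermal genes was not tested. Leaving out either K14-Cre-Twist1 library leaves 1, so that the test then rests on the spread of the wild-type libraries alone. Without K14-Cre-Twist1 library 1 it called 14 members and 3353 genes. Without K14-Cre-Twist1 library 2, the one with the high keratinocyte markers, it called Sfrp4 alone of the members (log2 fold change 4.51, FDR = 0.00313) and 27 genes.

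**Figure D5:**
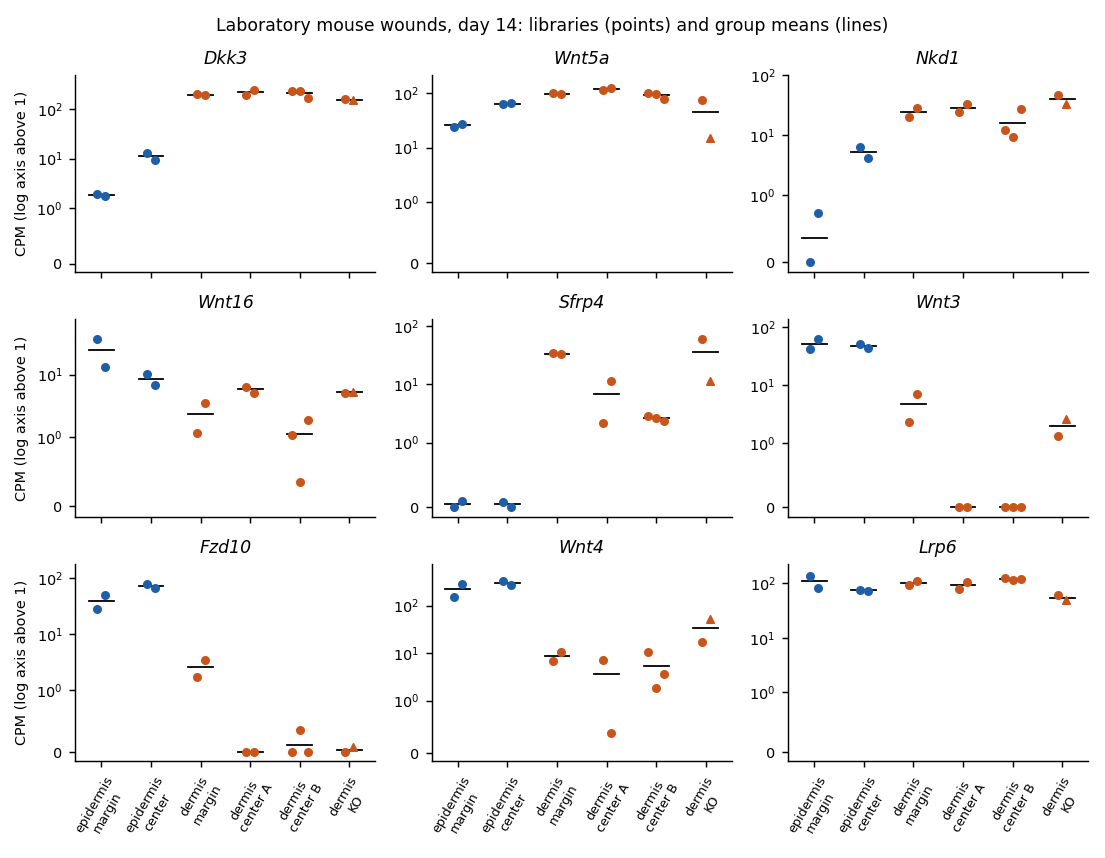
CPM of 9 members in each laboratory mouse library (a linear scale near 0 and logarithmic above), 1 point per library, for epidermis center and margin, dermis margin, dermis center as drawn with the margins (A, 2 libraries) and with K14-Cre-Twist1 (B, 3 libraries), and K14-Cre-Twist1 dermis; the triangle marks K14-Cre-Twist1 library 2. Sfrp4 lies above 30 CPM in both dermis margins and below 12 CPM in every wild-type center.

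A list of 60 other Wnt pathway genes (R-spondins and their receptors, ligand processing, Dishevelled, the destruction complex, non-canonical receptors and further inhibitors) was read in the same tables. In spiny mouse dermis on PWD21 against PWD0, 23 of 58 passed, 18 higher and 5 lower (26.2% of all genes passed), with log2 fold changes of 7.80 for Cthrc1, a collagen-associated protein that favors non-canonical signaling, 6.13 for the proteoglycan Gpc3, 3.35 for the co-receptor Ptk7, and -5.43 and -3.25 for the Lrp-binding inhibitors Sost and Sostdc1. In spiny mouse epidermis on PWD14 against PWD21, 22 of 48 passed, 13 higher and 9 lower, a share like the 46.6% of all genes, among them Ror1 (-2.77), Apcdd1 (-2.40), Sostdc1 (-2.07) and Wls, which carries Wnt ligands to the cell surface (-1.90). Between the tissues, 44 of 59 passed in the spiny mouse (54% of all genes), 16 higher in epidermis and 28 in dermis, where Rspo3, a secreted enhancer of the signal, had a log2 fold change of -9.16 and Rspo1 of -7.49, and 43 of 57 in the laboratory mouse (60.4% of all genes), 21 and 22. Center against margin called 1 of 52 in laboratory mouse epidermis, Wisp1 (3.72, FDR = 0.0427), where 1.24% of all genes passed. In dermis it called 1 of 55, Lgr5, an R-spondin receptor of follicle stem cells (-1.55, FDR = 0.0427), where 0.85% of all genes passed. K14-Cre-Twist1 against wild type called 0 of 56 by edgeR's quasi-likelihood test, where 0.0565% of all genes passed. By that test 14 of the 56 had an unadjusted p under 0.05, against 11.5% of all genes.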

How the data were processed

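Poly(A) RNA of 25 libraries was sequenced, and the authors deposited 1 table of read counts by gene symbol per library, neither normalized nor filtered. The submitters' processing notes say that reads were aligned to mm10 with STAR 2.4.1d, counted with HTSeq 0.6.0 and then handled in edgeR. The strand option of the counting is not given in the sources used here. Laboratory mouse epidermis libraries were strand-specific and paired-end, laboratory mouse dermis libraries strand-specific and single-end, and spiny mouse libraries single-end without strand. Each file held 24500 symbols, and the 5 summary lines of HTSeq were left out. The study's own list of libraries gives slightly different days for some spiny mouse libraries, and the days of the labels were used.

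Groups were taken from the labels, and the division of the wild-type center dermis libraries from the study's drawing of each comparison. CPM were computed within each species after TMM scaling. Every test was fitted on the whole table with edgeR 4.0.16 (limma 3.58.1, R 4.3.3): TMM scaling, low counts removed by filterByExpr as shipped, and quasi-likelihood tests with prior.count at 0.125, whose p-values were adjusted by Benjamini and Hochberg's method across the whole table (FDR). The threshold was an FDR of 0.05. An SE was taken as the absolute log2 fold change divided by the root of F. The code was tested on simulated counts. A fold against a group with no count in any library was computed against 3 counts in the library where they are worth most, and is a lower bound. The tissue comparisons, the day comparisons and the interaction share libraries with the pairwise comparisons.

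The members and gene lists were chosen with earlier results of these data known. Members with an FDR under 0.05 are named, or the 15 of lowest p where more passed, and those of lowest p up to 8 where fewer did; other members with values were taken to show a role or a day pattern, after their values were seen. Of the other Wnt genes, at most 6 per comparison are named. Alternatives were RLE scaling, omission of the low-count filter, a stricter one of at least 10 counts per library throughout, DESeq2 1.42.0, edgeR's likelihood ratio test, its older quasi-likelihood estimate, wider sets of libraries, each library left out in turn and, chosen after seeing the data, scaling by library size alone. Promoter windows came from a RefSeq table (GRCm38.p6). Values were summarized in Python 3.11.15 (pandas 2.3.3, numpy 2.4.6) and drawn with matplotlib 3.10.9.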

Additional observations from a re-analysis of the deposited data

Results flagged for a closer look

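The 5 wild-type wound center dermis libraries were searched for a library far from the others, and 35 members could be tested; by chance about 1 in 20 such groups would show one. Dkk2 stood at 11.3 CPM in library 3, where the next highest held 6.15 CPM. Sfrp2 stood at 333 CPM in library 4, against 141 CPM in the next. Sfrp4 stood at 11.3 CPM in library 2, against 2.84 CPM in the next, and library 2 is 1 of the 2 centers compared with the margins.

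The center-margin contrast of 3 members differed between epidermis and dermis by a test of that difference itself. The log2 difference was 2.43 for Dkk3, 10.38 for Fzd10 and 10.18 for Wnt3, each with the greater center-to-margin ratio in epidermis. The dermis centers held no count of Fzd10 or Wnt3, so the sizes of those 2 differences depend on the prior count. None of the 3 calls held on leaving out epidermis center library 1, dermis center library 1 or dermis margin library 2, and over the 8 libraries left out in turn Dkk3 lost its call in 4 cases, Fzd10 in 5 and Wnt3 in 6.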

How the results depend on the processing

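The main limit is the number of libraries: most pairwise comparisons rest on 2 against 2, and PWD28 on 1 per tissue. No paired analysis was possible because the labels carry no replicate numbers. Spiny mouse reads were read on another species' genome, and the effect of that alignment on each gene was not tested. At the shallowest library, 3 counts were worth 0.526 CPM.

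No named result that passed in the main test changed direction under the alternatives run. Differences near 0 that did not pass are not covered by this. In the laboratory mouse tissue comparison, the sign for Axin2 and Ctnnb1 depends on the scaling. Library size alone shifted the median gene of the spiny mouse tissue comparison from 0.01 to -0.11 on the log2 scale, and RLE that of the interaction from 0.31 to 0.16. Over members called, center against margin in laboratory mouse epidermis went from 0 to 4 with DESeq2, 4 with the likelihood ratio test and 1 (Dkk3) with all 13 laboratory mouse libraries in one fit. In dermis it went from 0 to 6 with DESeq2, 6 with the likelihood ratio test, 1 (Sfrp4) with at least 10 counts in every library and 1 (Sfrp4) with all 5 centers. K14-Cre-Twist1 against wild type went from 0 to 4 with DESeq2 and 3 with the likelihood ratio test. The interaction went from 3 to 1 with at least 10 counts, which tests fewer genes, and to 6 with the likelihood ratio test. That filter also took the tissue comparisons from 34 to 19 in the spiny mouse and from 32 to 13 in the laboratory mouse. Of all genes, DESeq2, the likelihood ratio test and the older estimate called 1511, 1533 and 0 in epidermis (176 in the main test), 738, 886 and 54 in dermis (125; 323 with all 5 centers) and 787, 214 and 2 for K14-Cre-Twist1 (8; 190 with all 5 centers, 0 with at least 10 counts). In the interaction they called 1127, 1485 and 511 (540), and with at least 10 counts 204. All 13 libraries in one fit called 397 in epidermis. The likelihood ratio test called 6597 across the dermis days (3795). In the spiny mouse tissues the filter left 4806 (8255). Apart from the differing filters and sets of libraries, the cause was not tested. Leaving out 1 library at a time, as listed next, also moved the count of all genes called in every comparison. Between the tissues that count ranged from 7086 to 9301 in the spiny mouse and from 7830 to 8976 in the laboratory mouse. In comparisons of 2 against 2 libraries, such a fit leaves 1 library in a group and rests on the spread of the other. The ranges of members therefore do not show that the members are less stable than other genes.

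Leaving out 1 library at a time gave 0 to 23 members for epidermis center against margin, 0 to 1 for dermis, 0 to 14 for K14-Cre-Twist1, 8 to 17 for spiny mouse epidermis PWD14 against PWD21 (8 without PWD21 library 2), 10 to 27 for dermis PWD21 against PWD0, 33 to 38 and 28 to 34 for the tissues in spiny and laboratory mouse, 0 to 12 for the interaction (12 without epidermis margin library 2), 26 to 35 across the epidermis days and 15 to 37 across the dermis days (37 without PWD0 library 2, 15 and 16 without PWD21 libraries 1 and 2).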
